A study of Mus musculus with 6 samples.

Results

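The mitochondrial carrier family (solute carrier family 25) was taken as all protein-coding rows whose symbol starts with Slc25a, which gave 47 genes of the 53953 rows listed in each library. The libraries came from mouse small-intestinal organoids, epithelial cultures started from crypts of the proximal small intestine, taken from wild-type C57BL/6 mice, grown in Matrigel and used at passage 3 to 5. For 3 libraries the cultures were exposed before passaging, over 3 days, to the polyunsaturated fatty acid arachidonic acid, and for the other 3 to its vehicle alone (ethanol at 0.1%). In both groups RNA was isolated on day 3 of growth after that passage. The dose was not given in the sources used here. Since no label ties a library to its own culture or animal, the p-values measure only how these libraries spread, which may be technical spread.

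Mitochondrial carriers are small proteins of the inner mitochondrial membrane, built from a tandem repeat, that exchange or co-transport metabolites between cytosol and matrix. They pass ADP in and ATP out, take up phosphate, acylcarnitines, amino acids, cofactors and iron, and link cytosolic and mitochondrial enzymes into shuttles. A few members sit in other membranes, among them Slc25a17 in peroxisomes and Slc25a46 in the outer mitochondrial membrane. Enterocytes of the small intestine are known for active mitochondrial metabolism, including citrulline synthesis from glutamine by way of ornithine.

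Values are FPKM, fragments scaled to gene length and to the library's total, so levels can be compared between genes. They are given for replicates 1, 2 and 3 in that order. Of the 47 carriers 39 averaged at least 1 FPKM over the 6 libraries and were tested with limma on log2(FPKM + 1), in 1 fit with all other genes at that level. Differences are arachidonic acid minus vehicle on this log2(FPKM + 1) scale, which understates the change of low genes, and a gene is called at an adjusted p under 0.05 (Benjamini-Hochberg over all 12913 tested genes).

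The libraries held 35.6 to 50.8 M fragments (M, mega) with arachidonic acid and 36.6 to 38.5 M with vehicle, as implied by the values. Replicate 1 of arachidonic acid stood apart on the first principal component of all tested genes, at -10.2, beside -58.1 and -54.6 for replicates 2 and 3 of its group and 40.4 to 41.6 for the vehicle libraries. For each called carrier its position between the groups was computed in FPKM, with the vehicle mean set to 0 and the mean of the other arachidonic acid libraries set to 1, and is given below as a part of the way. Since the test includes replicate 1, these positions are in part selected. Transcripts of the mitochondrial genome took 2.21% to 2.66% of fragments with arachidonic acid and 3.18% to 4.17% with vehicle. The summed level of 5 general epithelial markers was 3814 to 4691 FPKM with arachidonic acid and 2432 to 2553 FPKM with vehicle (3 called higher and 1 lower). Markers of secretory cells were lower with arachidonic acid, at 101 to 141 against 546 to 650 FPKM with vehicle for 5 enteroendocrine genes (5 called lower), 241 to 443 against 901 to 1095 FPKM with vehicle for 5 goblet genes (4 of 4 tested called lower) and 421 to 915 against 1712 to 2600 FPKM with vehicle for 4 Paneth genes (3 called lower). The sum of 6 enterocyte markers (2 called higher and 2 lower) was 2204 to 4876 FPKM with arachidonic acid, with replicate 1 the highest, and 1056 to 1331 FPKM with vehicle. That of 4 stem cell markers (1 called higher and 2 lower) was 227 to 288 FPKM with arachidonic acid and 454 to 527 FPKM with vehicle. Vim, a mesenchymal marker, was at 1.46, 0.623 and 0.373 FPKM with arachidonic acid and at 4.51, 5.66 and 4.13 FPKM with vehicle (-1.70, adjusted p = 0.003). Markers of endothelium and the other mesenchymal markers stayed under 0.5 FPKM in all libraries, with Cdh5 listed at 0, and so did 4 of 5 immune markers, while Cd68 was at 3.52, 23.9 and 16.8 FPKM with arachidonic acid and at 2.14, 2.02 and 1.53 FPKM with vehicle. In such bulk samples fewer cells of a type and less RNA per cell cannot be told apart, and the part of these shifts in the carrier results was not tested.

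Carrier transcripts moved in both directions. Of the 39 tested carriers 14 rose, 7 fell and 18 were not called, which is 35.9% higher and 17.9% lower beside 20.8% higher and 19.4% lower over all tested genes (40.2% in either direction). The carriers of acylcarnitine (Slc25a20), dicarboxylates (Slc25a10), ADP and ATP (Slc25a4), ATP-magnesium and phosphate (Slc25a24), pyrimidine nucleotides (Slc25a33) and aspartate and glutamate (Slc25a12 and Slc25a13) were among those that rose. The carriers of ornithine (Slc25a15), branched-chain amino acids (Slc25a44), coenzyme A (Slc25a42), S-adenosylmethionine (Slc25a26) and glycine (Slc25a38) were among those that fell. So was Slc25a23, another carrier of ATP-magnesium and phosphate. The median difference of the 39 was 0.10, against -0.03 for all tested genes, and the values ranged between -1.13 and 2.80. Among the called carriers the median was 0.60 for the 14 rises and -0.56 for the 7 falls, as a description. The groups did not overlap for 15 carriers that lay above and 9 that lay below vehicle, beside 27.6% and 27.5% of all tested genes (55.0% in either direction). One of the rises, Slc25a48, averaged under 1 FPKM with vehicle, so its level with arachidonic acid alone carried it over the filter.

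The counts moved with single libraries. Without arachidonic acid replicate 1, 16 carriers were called higher and 10 lower. With any other library left out fewer passed: 9 higher and 4 lower without arachidonic acid replicate 2, 9 and 2 without arachidonic acid replicate 3, 9 and 2 without vehicle replicate 1, 9 and 4 without vehicle replicate 2, and 12 and 2 without vehicle replicate 3. Of the 21 called carriers 10 were called in all settings that gave a value, namely the rises of Slc25a4, Slc25a10, Slc25a12, Slc25a13, Slc25a20, Slc25a24, Slc25a33 and Slc25a48 and the falls of Slc25a23 and Slc25a42. None of the 21 changed direction in those settings.

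**Figure D1:**
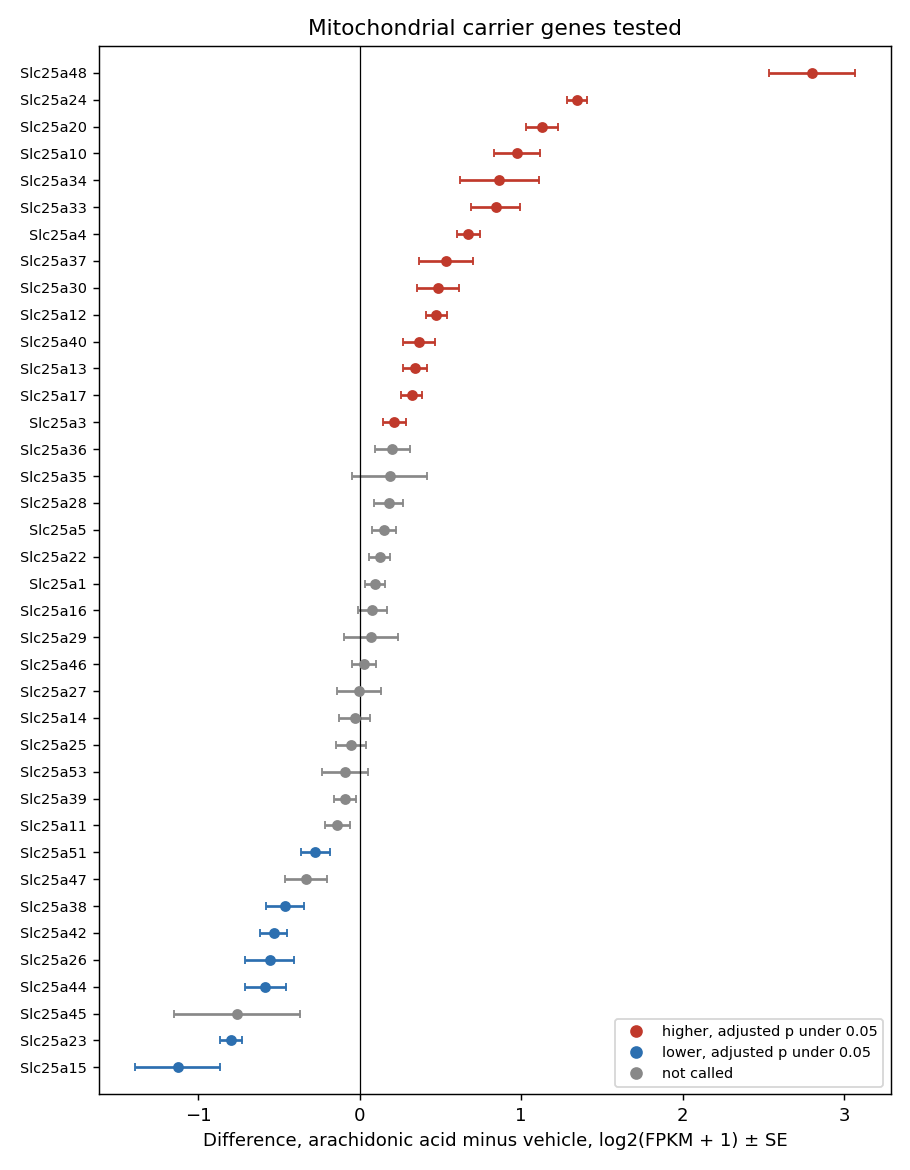
Difference between arachidonic acid and vehicle for 38 of the 39 tested carriers (horizontal axis, log2(FPKM + 1), points with the standard error from limma), ordered by size, with called genes in colour. The 14 rises reach from 0.22 for Slc25a3 to 2.80 for Slc25a48 and the 7 falls from -0.27 for Slc25a51 to -1.13 for Slc25a15.

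In vehicle organoids a few carriers held most of the family's transcript. Slc25a5, the main ADP/ATP carrier of proliferating cells, was the highest at 845 ± 48.6 FPKM (as mean ± SD over n = 3 libraries of a group, also in what follows), followed by the phosphate carrier Slc25a3 at 487 ± 30.4 FPKM. The glutathione carrier Slc25a39, at 384 ± 17.2 FPKM, and the citrate carrier Slc25a1, at 382 ± 17.8 FPKM, came next and did not differ beyond their spread. Together these 4 genes held 68.0%, 65.8% and 66.2% of the summed carrier FPKM with arachidonic acid and 68.4%, 68.4% and 70.0% with vehicle. The whole family summed to 3465, 3363 and 3403 FPKM with arachidonic acid, against 3007, 2966 and 3156 FPKM with vehicle. All 3 sums with arachidonic acid lay above all 3 vehicle sums. As a share of all FPKM of a library this was 0.459%, 0.453% and 0.450% with arachidonic acid and 0.377%, 0.384% and 0.406% with vehicle.

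In the group of adenine nucleotide and phosphate carriers 4 of 7 tested genes rose and 1 fell. That is 57.1% and 14.3%, beside 20.8% higher and 19.4% lower over all tested genes. The ADP/ATP and phosphate carriers of the group couple ATP made in the matrix to its use in the cytosol. The group also counts the peroxisomal Slc25a17. Slc25a4 (ENSMUSG00000031633), the ADP/ATP carrier typical of heart and muscle, had 108, 107 and 113 FPKM with arachidonic acid, against 73.9, 64.6 and 66.1 FPKM with vehicle. The groups were well apart and arachidonic acid replicate 1 sat with its group, at 0.97 of the way. Its difference was 0.67 (SE 0.07, adjusted p = 0.0014). Slc25a5 (ENSMUSG00000016319), at 991, 891 and 937 FPKM with arachidonic acid and 813, 822 and 901 FPKM with vehicle, overlapped between the groups and was not called (0.15, SE 0.07, adjusted p = 0.14). The files also list a pseudogene row for it, Slc25a5-ps, and with no record here of how shared reads were counted its level is uncertain. Slc25a3 (ENSMUSG00000061904), which brings in the phosphate for ATP synthesis, had 584, 565 and 546 FPKM with arachidonic acid, against 467, 472 and 522 FPKM with vehicle. That small rise (0.22, SE 0.07, adjusted p = 0.046) was not called without arachidonic acid replicate 2 or 3 (adjusted p = 0.12 and 0.094), without vehicle replicate 1 or 2 (adjusted p = 0.13 and 0.15), with no filter (adjusted p = 0.11) or with quantile normalization (adjusted p = 0.064).

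The calcium-regulated ATP-magnesium/phosphate carriers, which change the adenine nucleotide content of the matrix, went opposite ways. Slc25a24 (ENSMUSG00000040322) had 42.5, 43.8 and 41.8 FPKM with arachidonic acid, against 15.6, 16.4 and 16.6 FPKM with vehicle. It had the smallest p of the family, with a difference of 1.34 (SE 0.06, adjusted p = 0.00016), and arachidonic acid replicate 1 at 0.99 of the way. Slc25a23 (ENSMUSG00000046329) had 24.6, 23.2 and 22.7 FPKM with arachidonic acid, against 39.5, 42.6 and 42.4 FPKM with vehicle. The arachidonic acid libraries were all lower, with replicate 1 at 0.91 of the way, and the difference was -0.79 (SE 0.07, adjusted p = 0.00083). Slc25a25, another form, overlapped between the groups, at 11.6 ± 1.11 FPKM with arachidonic acid and 12.1 ± 0.745 FPKM with vehicle. Since Slc25a24 and Slc25a23 exchanged rank, the 250 bases before their starts are printed here, 5′ to 3′ on the gene's strand, from RefSeq, with capitals for the letters TGAC, 3 bases, GC (the core of the antioxidant response element) read on either strand.
Slc25a24, GRCm38.p6 chr3:109122899-109123148, plus strand: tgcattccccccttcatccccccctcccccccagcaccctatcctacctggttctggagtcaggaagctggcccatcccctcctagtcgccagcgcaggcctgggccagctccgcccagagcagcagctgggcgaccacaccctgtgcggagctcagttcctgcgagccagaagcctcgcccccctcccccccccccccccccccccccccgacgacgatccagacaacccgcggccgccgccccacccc
Slc25a23, GRCm38.p6 chr17:57059864-57060113, minus strand: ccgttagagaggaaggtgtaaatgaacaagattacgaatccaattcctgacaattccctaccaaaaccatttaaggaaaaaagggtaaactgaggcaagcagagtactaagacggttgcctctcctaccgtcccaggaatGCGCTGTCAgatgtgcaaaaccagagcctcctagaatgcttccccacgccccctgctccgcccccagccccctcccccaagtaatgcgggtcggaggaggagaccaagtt

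Slc25a17 (ENSMUSG00000022404), the peroxisomal carrier of coenzyme A, FAD and NAD, had 48.7, 53.5 and 54.7 FPKM with arachidonic acid, against 42.2, 42.0 and 40.5 FPKM with vehicle (difference 0.32, SE 0.07, adjusted p = 0.011). Its groups did not overlap, and the call was lost without arachidonic acid replicate 3 (adjusted p = 0.051). Slc25a31, a testis form of the ADP/ATP carrier, and Slc25a41 were listed at 0 in all 6 libraries.

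Slc25a20 (ENSMUSG00000032602), the carnitine/acylcarnitine carrier that brings fatty acids into the matrix for beta-oxidation, rose. It had 55.7, 50.3 and 45.9 FPKM with arachidonic acid, against 20.3, 24.1 and 23.4 FPKM with vehicle. All arachidonic acid libraries lay above all vehicle libraries, and replicate 1 was the highest, at 1.30 of the way. The difference was 1.13 (SE 0.10, adjusted p = 0.00091). The other proteins of the carnitine shuttle that were tested rose as well: Slc22a5, the plasma-membrane carnitine transporter, by 0.99 (SE 0.06, adjusted p = 0.00041), Cpt1a, the outer-membrane transferase, by 1.49 (SE 0.09, adjusted p = 0.00041), Cpt2, its inner-membrane partner, by 1.03 (SE 0.08, adjusted p = 0.00059), and Crat, carnitine acetyltransferase, by 0.98 (SE 0.09, adjusted p = 0.0011). Of these, Slc22a5, Cpt2 and Crat were named after their values were seen, so the set is in part selected. In the whole list of shuttle partner enzymes 12 of 33 tested genes rose (36.4%), beside 20.8% of all tested genes. Cpt1b and Cpt1c averaged under 1 FPKM and were not tested. As for Slc25a20, replicate 1 of arachidonic acid lay with or beyond its group for Slc22a5, Cpt1a, Cpt2 and Crat, at 0.80 to 1.21 of the way. PPAR receptors, which respond to fatty acids and are known to act on genes of fatty acid oxidation, bind a direct repeat of AGGTCA spaced by 1 base. The 250 bases before the start of Slc25a20 are printed because it is the family's carrier of fatty acids for oxidation. They hold no exact copy of that repeat and no match to TGAC, 3 bases, GC, so no letter is in capitals. The exact repeat is in only 0.0335% of the 32851 windows of all genes. Its absence from 1 window therefore tells nothing about these receptors.
Slc25a20, GRCm38.p6 chr9:108661886-108662135, plus strand: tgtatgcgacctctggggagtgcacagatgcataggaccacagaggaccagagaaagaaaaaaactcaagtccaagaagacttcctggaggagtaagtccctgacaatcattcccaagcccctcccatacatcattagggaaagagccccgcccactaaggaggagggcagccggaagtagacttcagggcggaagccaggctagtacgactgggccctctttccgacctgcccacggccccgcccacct

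The aspartate/glutamate carriers of the malate-aspartate shuttle, which moves reducing equivalents from cytosolic NADH into the matrix, rose along with its transaminases, while its other parts were not called or were lower. Slc25a12 (ENSMUSG00000027010), the aspartate/glutamate carrier also called aralar, had 37.5, 36.3 and 35.7 FPKM with arachidonic acid, against 25.3, 25.4 and 27.3 FPKM with vehicle (difference 0.47, SE 0.06, adjusted p = 0.0028). Slc25a13 (ENSMUSG00000015112), its paralog citrin, had 57.4, 62.3 and 58.2 FPKM with arachidonic acid, against 42.7, 47.8 and 49.2 FPKM with vehicle (difference 0.34, SE 0.08, adjusted p = 0.013). Neither gene's groups overlapped, with replicate 1 of arachidonic acid at 1.15 and 0.79 of the way. The aspartate transaminases Got1 and Got2, cytosolic and mitochondrial, rose by 0.66 (SE 0.09, adjusted p = 0.0028) and 0.58 (SE 0.07, adjusted p = 0.0017). Got1, Got2, Mdh1 and Mdh2 were named after their values were seen. Slc25a11 (ENSMUSG00000014606), the 2-oxoglutarate/malate carrier that completes the shuttle, had 134, 116 and 119 FPKM with arachidonic acid and 144, 131 and 131 FPKM with vehicle. It was not called (-0.14, SE 0.08, adjusted p = 0.19), and without arachidonic acid replicate 1 it was called lower (-0.20, adjusted p = 0.028). Among the malate dehydrogenases Mdh2, the matrix form, was not called (0.08, adjusted p = 0.55), while Mdh1, the cytosolic form, was lower (-0.46, SE 0.15, adjusted p = 0.046). Mdh1 had 296, 202 and 205 FPKM with arachidonic acid, against 303, 328 and 324 FPKM with vehicle, so that replicate 1 lay close to the vehicle libraries. The Mdh1 call was lost without any 1 library except arachidonic acid replicate 1 (adjusted p = 0.13 and 0.14 without replicates 2 and 3 of arachidonic acid, 0.1, 0.13 and 0.12 without vehicle replicates 1, 2 and 3), with no filter (adjusted p = 0.11) and with TPM (adjusted p = 0.069).

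Citrate and dicarboxylate carriers feed lipid synthesis and malate-based shuttles, and of 3 tested 1 rose (33.3%, beside 20.8% of all tested genes). Slc25a10 (ENSMUSG00000025792), which exchanges malate or succinate for phosphate, had 157, 219 and 227 FPKM with arachidonic acid, against 105, 98.7 and 97.5 FPKM with vehicle. Its groups did not overlap, though replicate 1 reached only 0.46 of the way (difference 0.98, SE 0.14, adjusted p = 0.0034). Slc25a1 (ENSMUSG00000003528), the citrate carrier that supplies cytosolic acetyl-CoA, had 399, 417 and 409 FPKM with arachidonic acid and 376, 369 and 403 FPKM with vehicle, which overlapped (0.10, SE 0.06, adjusted p = 0.25). Acly, the enzyme that cleaves the exported citrate, fell (-0.50, SE 0.09, adjusted p = 0.0072), and Me1, which makes NADPH and pyruvate from cytosolic malate, rose by 3.49 (SE 0.13, adjusted p = 8.2e-05). Slc25a21, the oxodicarboxylate carrier, was at 0 to 0.0541 FPKM.

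**Figure D2:**
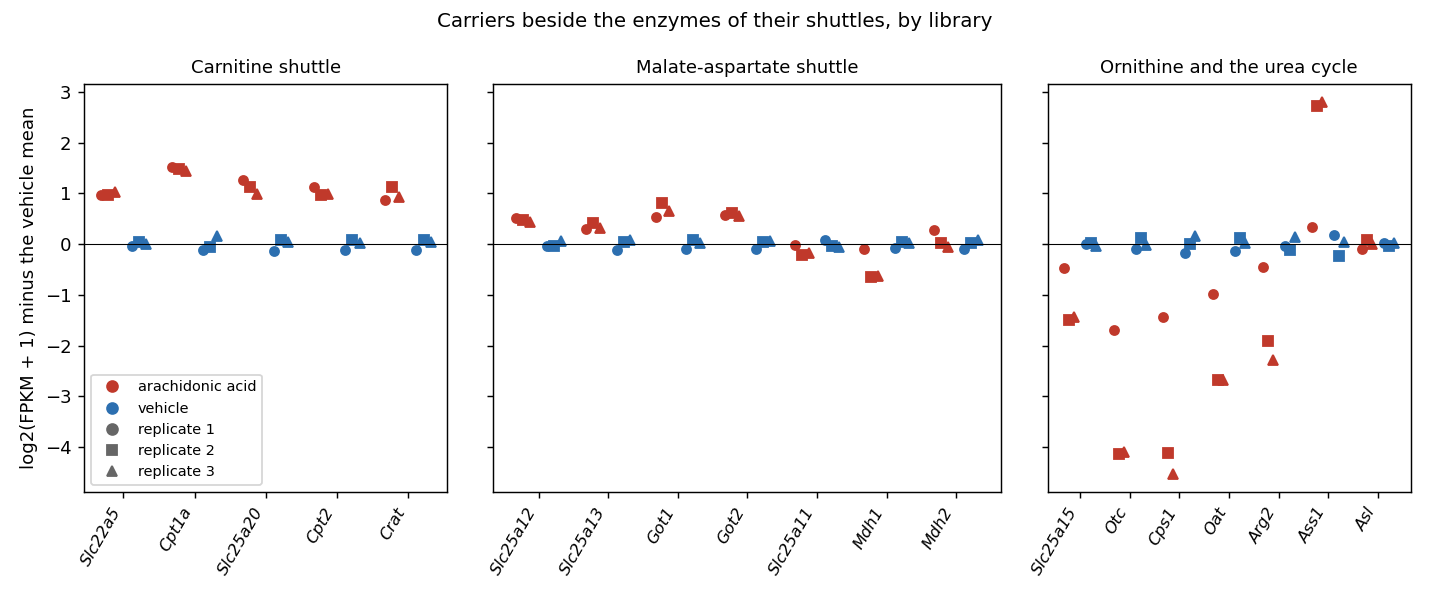
Level of each gene in each library as log2(FPKM + 1) minus its vehicle mean (vertical axis), for carriers and the proteins that work with them in the carnitine shuttle, the malate-aspartate shuttle and the ornithine steps of the urea cycle; symbols mark replicates. With arachidonic acid the 5 carnitine genes average 0.98 to 1.49. Slc25a15 averages -1.13 and Otc -3.31, both lowest in arachidonic acid replicates 2 and 3, while Ass1 averages 1.96.

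The largest fall belonged to an amino acid carrier. Slc25a15 (ENSMUSG00000031482), the ornithine carrier of the urea cycle and of citrulline synthesis, had 36.3, 17.3 and 18.1 FPKM with arachidonic acid, against 50.8, 51.6 and 49.0 FPKM with vehicle. All arachidonic acid libraries were below all vehicle libraries, but replicate 1 reached only 0.43 of the way and the spread in that group was wide, at 23.9 ± 10.7 FPKM beside 50.5 ± 1.31 FPKM. The difference was -1.13 (SE 0.26, adjusted p = 0.016). Without arachidonic acid replicate 3 or vehicle replicate 1, 2 or 3 the call was narrowly lost (adjusted p = 0.054, 0.06, 0.055 and 0.052), and without arachidonic acid replicate 1 it was kept (adjusted p = 7.7e-07). Of 6 enzymes of the urea cycle and ornithine metabolism in the list of shuttle partners, 4 fell, 1 rose and 1 was not called. All of these but Otc were named after their values were seen, so the count is in part selected. In the whole list 7 of 33 tested genes fell (21.2%) and 12 rose (36.4%), beside 19.4% lower and 20.8% higher over all tested genes. Otc, which makes citrulline, had 11.6, 1.31 and 1.39 FPKM with arachidonic acid, against 37.0, 43.0 and 39.3 FPKM with vehicle (-3.31, SE 0.63, adjusted p = 0.008). Cps1, which supplies it with carbamoyl phosphate, had 128, 19.4 and 14.3 FPKM with arachidonic acid, against 313, 353 and 393 FPKM with vehicle (-3.36, SE 0.75, adjusted p = 0.014). That call was lost without vehicle replicate 1 or 3 (adjusted p = 0.051 in both). Oat, ornithine aminotransferase, had 641, 195 and 195 FPKM with arachidonic acid, against 1151, 1366 and 1272 FPKM with vehicle (-2.11, SE 0.45, adjusted p = 0.011). Arg2, the mitochondrial arginase that makes ornithine, had 9.68, 2.85 and 1.99 FPKM with arachidonic acid, against 13.2, 12.5 and 15.1 FPKM with vehicle (-1.55, SE 0.44, adjusted p = 0.031). Its call was lost with no filter (adjusted p = 0.082) and without any 1 library except arachidonic acid replicate 1 (adjusted p = 0.095 and 0.084 without replicates 2 and 3 of arachidonic acid, 0.092, 0.079 and 0.097 without vehicle replicates 1, 2 and 3). Ass1, which joins citrulline to aspartate, went the other way, at 9.40, 53.7 and 56.3 FPKM with arachidonic acid, against 8.33, 5.99 and 7.51 FPKM with vehicle (1.96, SE 0.63, adjusted p = 0.046). Its replicate 1 lay just above the vehicle libraries. The Ass1 call was lost without any 1 library except that one (adjusted p = 0.13 and 0.14 without the other arachidonic acid libraries, 0.11, 0.13 and 0.11 with vehicle replicate 1, 2 or 3 left out), with no filter (adjusted p = 0.11), with quantile normalization (adjusted p = 0.051) and with voom (adjusted p = 0.13). Asl, which follows it in the cycle, was at 47.7, 53.5 and 51.0 FPKM with arachidonic acid and 51.4, 49.3 and 51.5 FPKM with vehicle, and was not called (adjusted p = 1.0). For Slc25a15, Otc, Cps1, Oat and Arg2 replicate 1 of arachidonic acid was the highest of its group and still under all vehicle libraries.

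The other amino acid carriers split. Slc25a44 (ENSMUSG00000050144), a carrier of branched-chain amino acids, had 22.3, 16.0 and 16.4 FPKM with arachidonic acid, against 27.3, 26.8 and 28.5 FPKM with vehicle (-0.58, SE 0.13, adjusted p = 0.013). Its call was narrowly lost without arachidonic acid replicate 3 or vehicle replicate 1 or 3 (adjusted p = 0.051, 0.052 and 0.052). Slc25a38 (ENSMUSG00000032519), the glycine carrier that serves heme synthesis, had 18.4, 13.9 and 15.0 FPKM with arachidonic acid, against 24.0, 20.4 and 21.5 FPKM with vehicle (-0.46, SE 0.12, adjusted p = 0.022). That call was lost without arachidonic acid replicate 2 or 3 or vehicle replicate 1 or 3 (adjusted p = 0.067, 0.075, 0.082 and 0.063). The arachidonic acid libraries were the lower ones throughout for both genes. Slc25a22, a glutamate carrier, was not called, at 24.7 ± 1.16 FPKM with arachidonic acid and 22.6 ± 0.400 FPKM with vehicle (0.13, adjusted p = 0.17), although its groups did not overlap. Its paralog Slc25a18 averaged 0.153 FPKM over all libraries. Slc25a29, a basic amino acid carrier, was at 2.52 ± 0.652 FPKM with arachidonic acid and 2.32 ± 0.189 FPKM with vehicle, and Slc25a2, a second ornithine carrier, reached at most 0.144 FPKM. Counted together, 2 of the 7 tested amino acid carriers rose and 3 fell. That is 28.6% and 42.9%, beside 20.8% higher and 19.4% lower over all tested genes. With so few genes nothing is read from this count.

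**Figure D3:**
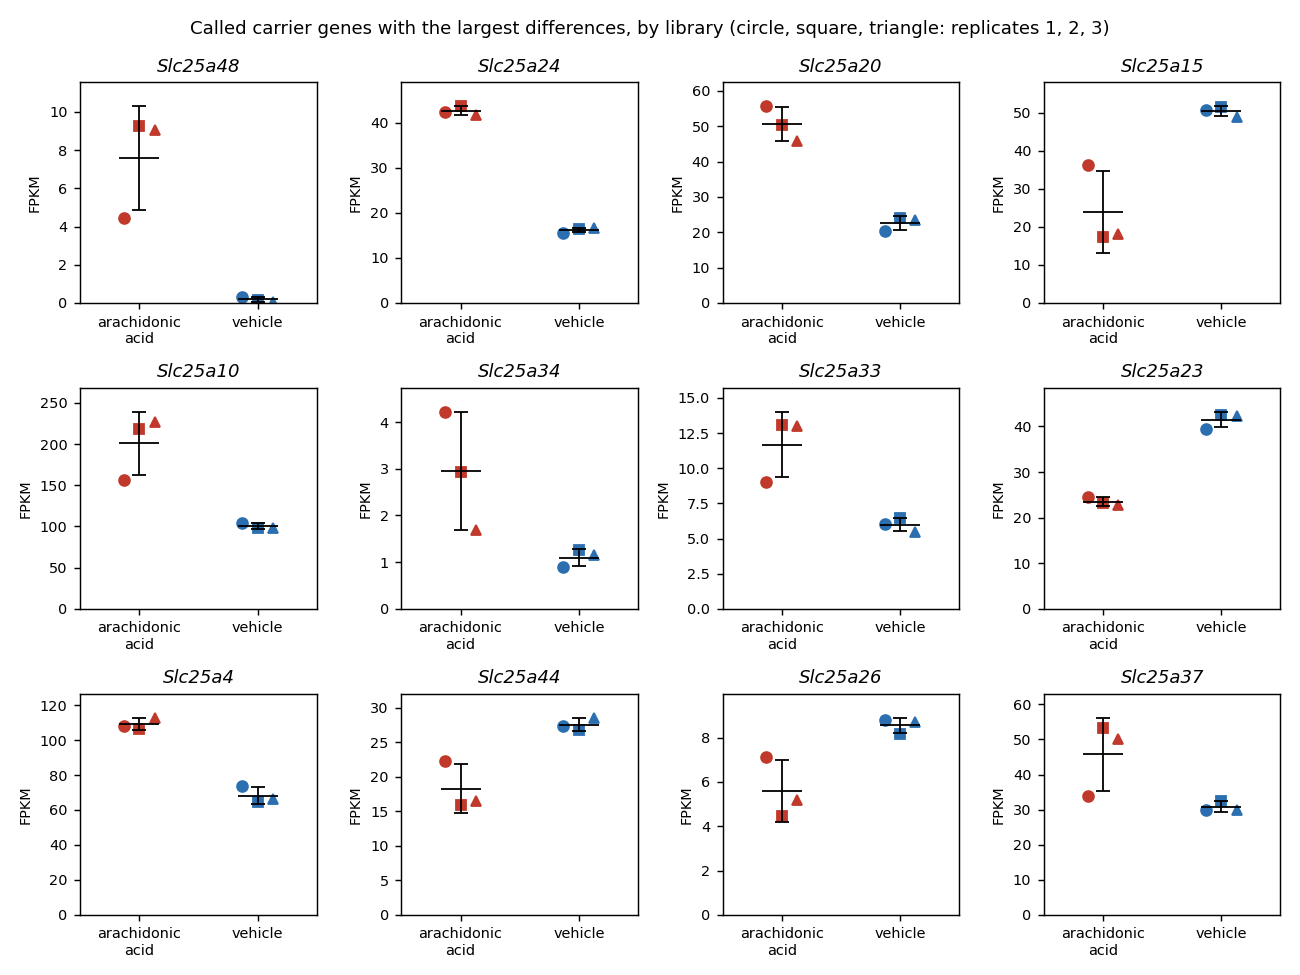
FPKM in each library (vertical axis, linear from 0) of the 12 called carriers with the largest differences, arachidonic acid at left and vehicle at right, with bars for the mean ± SD of 3 libraries. Slc25a24, Slc25a23 and Slc25a4 are tight in both groups. For Slc25a48, Slc25a15, Slc25a10, Slc25a33, Slc25a44, Slc25a26 and Slc25a37 arachidonic acid replicate 1 lies between the vehicle libraries and the rest of its group.

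Of 7 tested carriers of cofactors and nucleotides 1 rose and 3 fell. That is 14.3% and 42.9% of a small group, beside 20.8% higher and 19.4% lower over all tested genes. Slc25a42 (ENSMUSG00000002346), which exchanges coenzyme A for adenine nucleotides, had 14.5, 14.7 and 13.5 FPKM with arachidonic acid, against 21.9, 22 and 19.2 FPKM with vehicle (-0.53, SE 0.08, adjusted p = 0.0043). Arachidonic acid replicate 1 sat with its group, at 0.94 of the way. Slc25a26 (ENSMUSG00000045100), the S-adenosylmethionine carrier, had 7.14, 4.47 and 5.17 FPKM with arachidonic acid, against 8.80, 8.18 and 8.70 FPKM with vehicle (-0.56, SE 0.15, adjusted p = 0.028). That call held with all libraries and without arachidonic acid replicate 1, and was lost with no filter (adjusted p = 0.07), without replicate 2 or 3 of arachidonic acid (adjusted p = 0.074 and 0.089) and without vehicle replicate 1, 2 or 3 (adjusted p = 0.092, 0.071 and 0.084). An exon of Slc25a26 overlaps Lrig1 on the opposite strand, so if counting ignored strand reads of the pair cannot be told apart. Slc25a51 (ENSMUSG00000045973), the NAD carrier, had 37.8, 30.9 and 31.6 FPKM with arachidonic acid, against 39.1, 41.7 and 40.8 FPKM with vehicle (-0.27, SE 0.09, adjusted p = 0.049). It passed only narrowly and was lost without arachidonic acid replicate 2 or 3 (adjusted p = 0.15 and 0.16), without vehicle replicate 1, 2 or 3 (adjusted p = 0.099, 0.15 and 0.12), with no filter (adjusted p = 0.086) and with TPM (adjusted p = 0.1).

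The rise in this group was Slc25a33 (ENSMUSG00000028982), a pyrimidine nucleotide carrier that serves mitochondrial DNA and RNA synthesis. It had 9.0, 13 and 13 FPKM with arachidonic acid, against 6.01, 6.46 and 5.50 FPKM with vehicle. The groups did not overlap and replicate 1 reached 0.43 of the way (0.84, SE 0.15, adjusted p = 0.0067). Its paralog Slc25a36 was not called at 51.9 ± 5.89 FPKM with arachidonic acid and 44.9 ± 4.43 FPKM with vehicle (0.20, adjusted p = 0.17). The bases before the start of Slc25a33 are shown because this carrier and Slc25a3 were the called rises with the capitalised letters.
Slc25a33, GRCm38.p6 chr4:149774268-149774517, minus strand: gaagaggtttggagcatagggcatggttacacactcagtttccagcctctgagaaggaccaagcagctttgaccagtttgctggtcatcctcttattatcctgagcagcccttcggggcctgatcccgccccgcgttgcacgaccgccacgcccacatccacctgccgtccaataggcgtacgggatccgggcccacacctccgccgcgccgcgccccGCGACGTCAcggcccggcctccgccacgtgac
Slc25a16 was not called, at 20.6 ± 1.47 FPKM with arachidonic acid and 19.4 ± 1.48 FPKM with vehicle (adjusted p = 0.5). Slc25a32, the folate and FAD carrier, was listed at 0 in all 6 libraries.

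Of 4 carriers of iron and glutathione 2 rose and none fell, a group too small to set against the 20.8% higher and 19.4% lower over all tested genes. Slc25a37 (ENSMUSG00000034248), mitoferrin 1, which imports iron for heme and iron-sulphur clusters, had 34.0, 53.4 and 50.0 FPKM with arachidonic acid, against 29.8, 32.6 and 29.9 FPKM with vehicle (0.53, SE 0.17, adjusted p = 0.041). Replicate 1 of arachidonic acid lay just above the vehicle libraries, at 0.15 of the way. The call was lost without replicate 2 or 3 of arachidonic acid (adjusted p = 0.12 and 0.13), without vehicle replicate 1, 2 or 3 (adjusted p = 0.12, 0.086 and 0.11), with no filter (adjusted p = 0.093) and with quantile normalization (adjusted p = 0.061). Its paralog Slc25a28, mitoferrin 2, was higher in level, at 70.1 ± 6.70 FPKM with arachidonic acid and 61.6 ± 4.10 FPKM with vehicle, and was called only without arachidonic acid replicate 1 (0.25, adjusted p = 0.023). Slc25a40 (ENSMUSG00000054099), a glutathione carrier paralog, had 6.02, 6.12 and 6.40 FPKM with arachidonic acid, against 4.08, 4.72 and 4.93 FPKM with vehicle (0.37, SE 0.10, adjusted p = 0.026). Its groups did not overlap, and the call was lost without replicate 2 or 3 of arachidonic acid (adjusted p = 0.07 and 0.094), without vehicle replicate 1 or 2 (adjusted p = 0.084 and 0.07) and with no filter (adjusted p = 0.069). The far more abundant Slc25a39 overlapped between the groups, at 361 ± 20.8 FPKM with arachidonic acid and 384 ± 17.2 FPKM with vehicle (-0.09, adjusted p = 0.33).

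Of 3 carriers in the branch related to uncoupling proteins 1 rose (33.3%, beside 20.8% of all tested genes). Slc25a30 (ENSMUSG00000022003) had 16.6, 22 and 22.6 FPKM with arachidonic acid, against 13.1, 13.9 and 15.7 FPKM with vehicle (0.49, SE 0.13, adjusted p = 0.027), and replicate 1 reached 0.30 of the way. That call was lost without arachidonic acid replicate 2 or 3 (adjusted p = 0.087 and 0.092), without vehicle replicate 1 or 2 (adjusted p = 0.097 and 0.085) and with no filter (adjusted p = 0.062). Slc25a14 of the same branch was at 3.75 ± 0.219 FPKM with arachidonic acid and 3.84 ± 0.123 FPKM with vehicle, and Slc25a27 was at 1.56 ± 0.132 FPKM with arachidonic acid and 1.58 ± 0.279 FPKM with vehicle. Both overlapped between the groups (adjusted p = 0.82 and 0.98).

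The largest rise of the family was Slc25a48 (ENSMUSG00000021509), reported as a mitochondrial choline transporter. It had 4.43, 9.25 and 9.06 FPKM with arachidonic acid, against 0.325, 0.170 and 0.0692 FPKM with vehicle. It was low in level even where it was highest, and replicate 1 lay at 0.47 of the way (2.80, SE 0.26, adjusted p = 0.0011). Slc25a34 (ENSMUSG00000040740) had 4.22, 2.94 and 1.70 FPKM with arachidonic acid, against 0.892, 1.26 and 1.15 FPKM with vehicle (0.86, SE 0.25, adjusted p = 0.031). Here replicate 1 was the highest of its group, at 2.56 of the way. The Slc25a34 call was lost without arachidonic acid replicate 2 (adjusted p = 0.086), without vehicle replicate 1, 2 or 3 (adjusted p = 0.1, 0.072 and 0.081) and with no filter (adjusted p = 0.084). Slc25a45 was not called with all libraries (-0.76, SE 0.39, adjusted p = 0.16), at 3.41, 0.700 and 0.638 FPKM with arachidonic acid and 2.61, 3.72 and 2.46 FPKM with vehicle. Replicate 1 of arachidonic acid lay among the vehicle libraries, and without it Slc25a45 was called lower (-1.22, adjusted p = 0.00041). Slc25a35 was called higher and Slc25a47 lower only without that library (0.42 and -0.37, adjusted p = 0.043 in both), and Slc25a46 and Slc25a53 were not called (adjusted p = 0.78 and 0.64).

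In all, 8 of the 47 carriers averaged under 1 FPKM and were not tested. Slc25a31, Slc25a32, Slc25a41 and Slc25a54 were listed at 0 in all 6 libraries. Slc25a2, Slc25a18 and Slc25a21 reached at most 0.144, 0.271 and 0.0541 FPKM in a library. Slc25a43 was the highest of them, at 0.477, 0.985 and 0.877 FPKM with arachidonic acid and 0.357, 0.0913 and 0 FPKM with vehicle, and rested on 0 to 51 fragments per library.

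Related carriers were also compared within each library as the share of the first gene in the summed FPKM of the pair, which does not depend on scaling between libraries. For 8 of 11 pairs the shares did not overlap between the groups. Single genes did not overlap in 55.0% of all tested genes, and no such share was computed over other gene pairs, so nothing about the carrier pairs is read from this count. For these pairs an exact two-sided permutation test gave 0.1, the smallest p that 3 libraries against 3 allow, so none can pass 0.05. Slc25a23 held 35.5 ± 1.02% of its sum with Slc25a24 with arachidonic acid and 71.9 ± 0.280% with vehicle. That was the widest shift, and the more abundant of the pair changed from one group to the other. Slc25a24 likewise held 78.6 ± 1.5% of its sum with Slc25a25 with arachidonic acid and 57.3 ± 1.80% with vehicle. Slc25a10 held 61.6 ± 6.58% of its sum with Slc25a11 with arachidonic acid and 42.6 ± 0.462% with vehicle, and Slc25a16 held 59.1 ± 0.861% of its sum with Slc25a42 with arachidonic acid and 48.0 ± 3.65% with vehicle. Slc25a4 remained the minor ADP/ATP carrier, at 10.4 ± 0.501% of its sum with Slc25a5 with arachidonic acid and 7.49 ± 0.771% with vehicle. The shares of Slc25a12 with Slc25a13, of Slc25a28 with Slc25a37 and of Slc25a22 with Slc25a18 overlapped between the groups (exact permutation p = 0.2, 0.2 and 0.3). The longest run of identical bases between annotated transcripts of a pair was 12 to 21 bases.

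**Figure D4:**
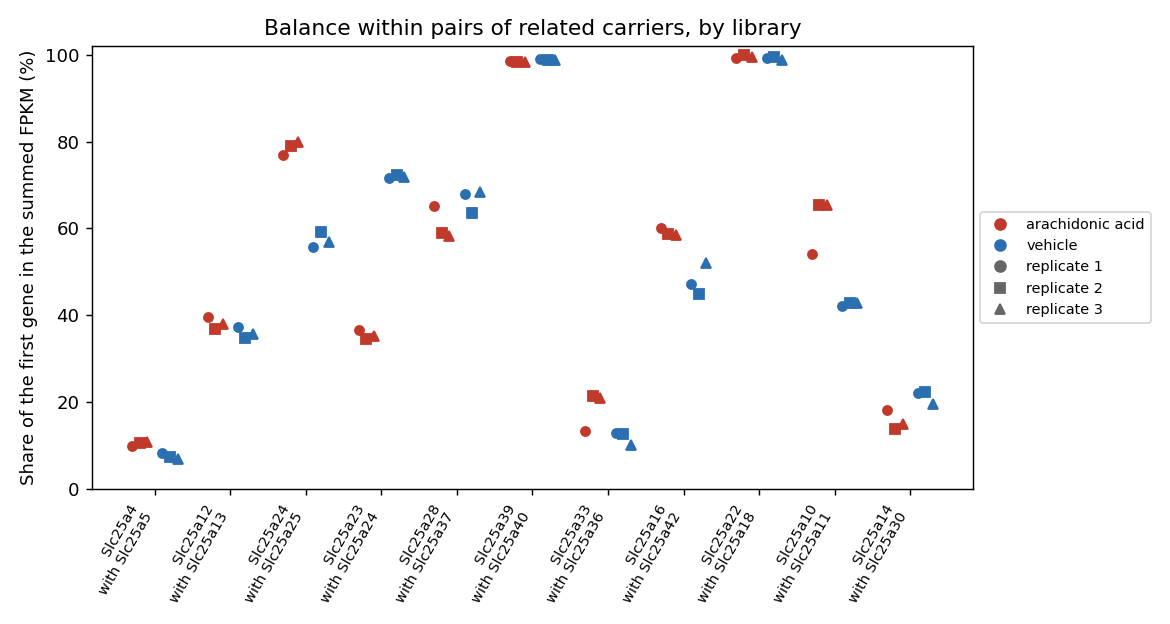
Share of the first-named gene in the summed FPKM of 11 pairs of related carriers (vertical axis, percent), 1 point per library, arachidonic acid left of vehicle in each pair. The points of Slc25a23 with Slc25a24 change sides of 50%, at 34.6% to 36.6% with arachidonic acid and 71.7% to 72.2% with vehicle, while Slc25a12 with Slc25a13 stays between 34.7% and 39.5%.

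3 lists of genes outside the family were counted in the same fit. Of 24 tested genes of other mitochondrial transport proteins 10 rose and 5 fell (median difference 0.22), which is 41.7% and 20.8% beside 20.8% higher and 19.4% lower over all tested genes. Ucp2, an uncoupling protein relative not named Slc25a, rose by 0.44 (SE 0.06, adjusted p = 0.0026) and the ABC transporter Abcb8 by 0.46 (SE 0.06, adjusted p = 0.0025), while the sideroflexins Sfxn2 and Sfxn5 fell (-0.86 and -0.82, adjusted p = 0.0021 and 0.013). The Sfxn5 call was lost without vehicle replicate 1 or 3 (adjusted p = 0.058 and 0.051). Of 33 tested shuttle partner enzymes 12 rose and 7 fell (median 0.04), which is 36.4% and 21.2%. Of 21 tested genes of the machinery that imports carriers into the inner membrane 1 rose and 2 fell (median -0.07). With all libraries kept this is 4.76% and 9.52%, both below those shares over all tested genes. The called import genes were the chaperone Hsp90aa1 (0.36, adjusted p = 0.0085) and the import subunits Timm8a1 and Tomm5 (-0.49 and -0.44, adjusted p = 0.025 and 0.038). Both falls were lost with no filter (adjusted p = 0.06 and 0.089), without arachidonic acid replicate 2 (adjusted p = 0.051 and 0.11) or 3 (adjusted p = 0.075 and 0.1) and without vehicle replicate 1 (adjusted p = 0.089 and 0.12) or 2 (adjusted p = 0.069 and 0.1), and that of Timm8a1 also without vehicle replicate 3 (adjusted p = 0.071). Without arachidonic acid replicate 1, 7 import genes, 12 partner enzymes and 6 other transport genes were lower. Without arachidonic acid replicate 2 these lower counts were 0, 5 and 3, without arachidonic acid replicate 3 they were 0, 4 and 3, and without vehicle replicates 1, 2 and 3 they were 0, 3 and 1, then 0, 5 and 3, and then 1, 4 and 3.

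Of the 47 carriers 36 had 1 or more starts in the RefSeq promoter table (46 starts, GRCm38.p6). The direct repeat of AGGTCA spaced by 1 base was in none of the 46 windows of 250 bases and in 0.0335% of the 32851 windows of all genes, on either strand. The letters TGAC, 3 bases, GC were in 9 of the 46 windows (19.6%), beside 10.2% of all windows, and belonged to 7 genes. Of these genes Slc25a3 and Slc25a33 rose (2 of 13 risen carriers with a window) and Slc25a23 and Slc25a38 fell (2 of 4). Slc25a5, Slc25a14 and Slc25a25 were not called (3 of 14). With so few genes nothing is read from these counts. In the printed windows the match begins 32 bases before the start of Slc25a33 and 110 bases before that of Slc25a23. These are matches of letters only.

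Of the tested carriers 12 have an exon that overlaps another gene in GENCODE M21, 10 of them on the opposite strand, and the overlapping reads cannot be assigned if counting ignored strand. Among the called carriers these are Slc25a10, Slc25a23, Slc25a26, Slc25a33 and Slc25a37, and Slc25a51 overlaps a microRNA gene on its own strand.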

How the data were processed

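Total RNA of 6 organoid libraries was sequenced, 3 per group, and grouped by the labels. The deposited files hold 1 value per gene and library. No label names the unit: the deposited values times the mean transcript length in GENCODE M21 were close to multiples of 1 unit in each library (96.3% to 96.8% of low values within 0.1 of a whole number), so they were taken as FPKM. The submitters' processing notes name featureCounts 1.5.0-p3, HISAT2 2.0.5 and StringTie 1.3.3b without their roles. Build and strand setting were not given in the sources used here. The implied depth was 35.6 to 50.8 M fragments per library. Gene symbols and biotypes came from GENCODE M21 by gene ID (53360 of 53953 rows).

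From these values log2(FPKM + 1) was tested with limma 3.58.1 (empirical Bayes with trend, R 4.3.3) for genes averaging 1 FPKM or more over all libraries, with Benjamini-Hochberg adjustment over 12913 genes and no replicate block. Every adjusted p comes from limma. Pair shares had an exact two-sided permutation test (scipy 1.17.1). The code was tested on simulated data. Alternatives were no filter, quantile normalization, TPM, a minimum mean of 5 FPKM, median-of-ratios scaling, a pseudocount of 0.1, the replicate block, leaving out each library, and, added after seeing the data, limma-voom on recovered fragments.

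The members and lists were chosen with earlier results of these data known. Described in full were all called carriers and Slc25a1, Slc25a3, Slc25a4, Slc25a5, Slc25a10, Slc25a11, Slc25a12, Slc25a13 and Slc25a20, and from each list outside the family the 2 called genes with the smallest p per direction. Slc22a5, Cpt2, Crat, Got1, Got2, Mdh1, Mdh2, Cps1, Oat, Arg2, Ass1 and Asl were named after their values were seen. Promoter letters were searched on both strands of the 250 bases before each RefSeq start. Protein sequences were not analysed here. The values of 1 tested carrier, which was not called, are counted in the totals and not reported here.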

Additional observations from a re-analysis of the deposited data

How the results depend on the processing

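Same-numbered libraries did not stand out from others (correlations -0.08, 0.21 and -0.06, beside -0.18 to 0.19). With 3 libraries per group these correlations cannot exclude pairing, and the labels do not state any. With the replicate block 11 carriers were higher and 6 lower, and Slc25a3, Slc25a34, Slc25a40, Slc25a51, Mdh1 and Ass1 were not called (adjusted p = 0.099, 0.056, 0.06, 0.097, 0.071 and 0.058). With all libraries kept the other settings called 10 to 14 carriers higher and 5 to 7 lower, and voom on recovered fragments, chosen after seeing the data, called 14 and 7. The carrier median was 0.14 with a minimum mean of 5 FPKM and 0.16 with TPM. Lower import genes numbered 0 with no filter and 4 with quantile normalization, and lower other transport genes 3 with a minimum mean of 5 FPKM. Differences near 0 changed sign for Slc25a46 with quantile normalization (-0.0026), for Slc25a27, Slc25a25 and Slc25a14 with TPM (0.0352, 0.0021 and 0.0180), for Slc25a27 with median-of-ratios scaling (0.0075) and for Asl with TPM (0.0583) and median-of-ratios scaling (0.0182). The cause of these changes was not tested.

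With each library left out in turn, carriers called higher ranged from 9 to 16 and lower from 2 to 10, all genes higher from 1712 to 3554 and lower from 1245 to 4192, other transport genes lower from 1 to 6, partner enzymes lower from 3 to 12 and import genes lower from 0 to 7. Differences also crossed 0, ranging between -0.064 and 0.0022 for Slc25a14, -0.115 and 0.012 for Slc25a25, -0.0655 and 0.0811 for Slc25a27, -0.033 and 0.232 for Slc25a29, -0.0081 and 0.421 for Slc25a35, -0.015 and 0.0608 for Slc25a46, -0.0386 and 0.0427 for Asl, and -0.016 and 0.148 for Mdh2. Pair shares kept their direction in all such settings. Carriers listed under 1 FPKM rest on few fragments and no difference was tested for them.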
